A study of Mus musculus with 9 samples.

Results

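The cytosolic ribosomal protein genes encode the protein parts of the ribosome that works in the cytoplasm, and their mRNA was measured by RNA sequencing of tibialis anterior muscle, a muscle of the lower hind limb, collected from mice after injury. A row of the deposited gene table was a member if it was protein coding and carried a large subunit (Rpl) or small subunit (Rps) name without the suffix of a pseudogene or a kinase. The rule chose 80 of 54532 rows, 49 for the large subunit and 31 for the small one, and used no measured value. The filter on low values left 78 of the 80, namely 47 large subunit and 31 small subunit genes. Rpl24 and Rpl10l did not pass it, and the tests below cover the other 78 genes.

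There were 3 groups of 3 libraries each. The old P311-/- group came from old mice in which both copies of the P311 gene (symbol Nrep) are inactivated, and their age in months was not given. The old WT group came from wild-type mice of 24 months, and the young WT group from wild-type mice of 4 to 6 months. All 9 libraries came from injured muscle, so no group is uninjured. The kind of injury, the time after it, the strain and the sex were not given, nor was it said whether the replicates are separate animals, so a p-value here speaks only of how these libraries vary, which may be technical.

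A eukaryotic ribosome joins a small subunit, which holds the mRNA and reads its codons, to a large subunit, which forms the peptide bond and leads the new chain out through a tunnel. Nearly every ribosomal protein is present once per ribosome, so cells make these proteins in matched amounts. Most of their mRNAs begin with a 5′ terminal oligopyrimidine (TOP) tract, by which growth signals through mTORC1 and the RNA-binding protein LARP1 set how strongly they are translated and stored. Skeletal muscle also makes RPL3L, a paralogue of the large subunit protein RPL3 found in striated muscle, and ribosome number is known to rise when muscle grows or regenerates.

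Recovered reads per library were 20475248 to 31910890 in old P311-/-, 17730208 to 23133027 in old WT and 14222204 to 18249081 in young WT. Nrep itself stood at 10.3 ± 4.26 FPKM in old P311-/-, 75.6 ± 6.51 FPKM in old WT and 74.3 ± 11.3 FPKM in young WT (SD, n = 3 each). FPKM here are fragments per length of exon and per library size. That size follows a size factor, a median of gene-wise ratios between libraries, and not the total reads. Old P311-/- replicate 1 stood apart from replicates 2 and 3 of its group: a library quality weight estimated over all tested genes was 0.213 for it, 0.683 and 2.88 for the others of its group, and 0.825 to 1.41 for the 6 wild-type libraries. Calls in this group are therefore also given from a fit without that library. The defining markers of muscle fibres were present in every library, with a summed level of 10 fibre genes between 50279 and 72084 FPKM.

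The start regions of 8 genes are printed to show where 2 sequence features known from this family lie, and Rplp0 and Rpl3l are included as windows with neither marked. Each runs from 80 bases before to 19 bases after the first transcribed base, 5′ to 3′ on the gene strand, from RefSeq on GRCm38. Capitals mark CCGGAAG or its reverse complement CTTCCGG, the core bound by ETS family factors, and a pyrimidine run near the start, which is CTTTTC or else CTTTCC or else CTTCCT, and these can overlap each other. The first 4 genes were called higher in old WT than in young WT muscle, the next 3 were not called, and the last is the striated muscle paralogue. Rpl26 and Rpl3l do have a pyrimidine run within 50 bases after the start, beyond the last base printed.
Rps27 (chr3:90213629-90213728, minus strand): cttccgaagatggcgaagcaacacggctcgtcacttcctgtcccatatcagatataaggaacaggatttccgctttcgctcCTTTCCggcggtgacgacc
Rpl34 (chr3:130730379-130730478, minus strand): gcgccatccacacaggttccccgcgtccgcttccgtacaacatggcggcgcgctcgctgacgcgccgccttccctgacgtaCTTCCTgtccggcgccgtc
Rpl31 (chr1:39367771-39367870, plus strand): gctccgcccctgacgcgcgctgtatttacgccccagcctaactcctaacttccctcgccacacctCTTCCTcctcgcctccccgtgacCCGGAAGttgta
Rps27l (chr9:66946006-66946105, plus strand): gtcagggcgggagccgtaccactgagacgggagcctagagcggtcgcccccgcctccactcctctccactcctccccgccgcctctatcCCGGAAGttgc
Rpl26 (chr11:68901486-68901585, plus strand): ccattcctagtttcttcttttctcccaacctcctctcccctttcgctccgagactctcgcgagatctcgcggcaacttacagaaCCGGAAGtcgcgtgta
Rpl4 (chr9:64173307-64173406, plus strand): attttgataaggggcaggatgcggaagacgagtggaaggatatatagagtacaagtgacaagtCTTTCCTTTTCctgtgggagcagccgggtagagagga
Rplp0 (chr5:115559387-115559486, plus strand): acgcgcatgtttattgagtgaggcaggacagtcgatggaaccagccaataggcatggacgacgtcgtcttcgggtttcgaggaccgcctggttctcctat
Rpl3l (chr17:24727746-24727845, plus strand): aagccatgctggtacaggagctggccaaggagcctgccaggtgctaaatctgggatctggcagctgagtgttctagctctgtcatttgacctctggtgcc

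A RefSeq start window was at hand for 60 of the 80 genes. CCGGAAG, on either strand, was found in the 300 bases from 250 before to 50 after the start in 24 of them (40.0%), against 2910 of all 32851 windows (8.86%). A pyrimidine run, on the gene strand from 20 bases before to 50 after the start, was found in 31 of the 60 (51.7%), against 3356 of all windows (10.2%). TATAAA, on the gene strand within 50 bases before the start, was found in 0 of the 60 and in 863 of all windows (2.63%). No test was made between the genes called higher in old WT muscle and the others: CCGGAAG stood in 7 of 17 called genes and 17 of 43 others, and a pyrimidine run in 7 of 17 and 24 of 43. A match is a description of the letters, not a binding site.

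Ribosomal protein mRNA was abundant. The 80 genes took 1.91% to 2.64% of all reads in old P311-/-, 2.42% to 2.80% in old WT and 2.05% to 2.2% in young WT. Rplp1, a protein of the acidic stalk that recruits elongation factors, had the highest mean level at 1182 FPKM over the 9 libraries. Rplp0, the base of the same stalk, followed at 634 FPKM. This order depends on the length divisor: Rplp1 had 113554 reads over 499 exonic bases, and Rplp0 had 200528 over 1659. Of the tested genes, 45 of 47 for the large subunit and 30 of 31 for the small subunit averaged at least 10 FPKM. The exceptions were Rpl13a, Rpl39l and Rps10.

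Some of the low values go with how the gene models overlap or repeat. Rpl24 had 75 reads in the 9 libraries together, Rps10 had 268 and Rpl13a had 1837, although all 3 encode proteins that ribosomes in most tissues carry. In the GENCODE M21 annotation, 47.0% of the exonic bases of Rpl24, 35.4% of those of Rpl13a and 20.6% of those of Rps10 lie on the same strand as exons of another gene, and no other member reached 20%. For Rps10 the overlapping gene is the read-through model RPS10-NUDT3. Whether the overlap set these counts was not tested. Rpl10l was listed at 0 in all 9 libraries, and Rpl39l had 106 reads in all; both are paralogues of general ribosomal proteins, with expression known mainly from testis.

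Processed copies of ribosomal protein genes are common in the mouse genome, and reads can be split between a gene and its copies. Of the reads in Rps10 and the rows named as its copies, 98.3% were in the copies. The share was 80.7% for Rpl17, 44.3% for Rpl21, 29.8% for Rps12, 21.2% for Rpl7a and 19.9% for Rpl14. Rpl17, a protein lining the exit tunnel, had 122, 74.6 and 75 FPKM in old P311-/-, 128, 120.3 and 116 FPKM in old WT and 185, 57.5 and 84.1 FPKM in young WT. With the copies added, a choice made after the data were seen, it had 609, 436 and 417 FPKM in old P311-/-, 669, 679 and 704 FPKM in old WT and 488, 381 and 503 FPKM in young WT. The summed values kept the groups old WT and young WT apart, and the values of the gene alone did not. Levels and changes of these genes are uncertain to that extent. Rps27a and Rpl39, which changed most among called genes with age, had 2.1% and 1.31% of their reads in named copies.

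**Figure D1:**
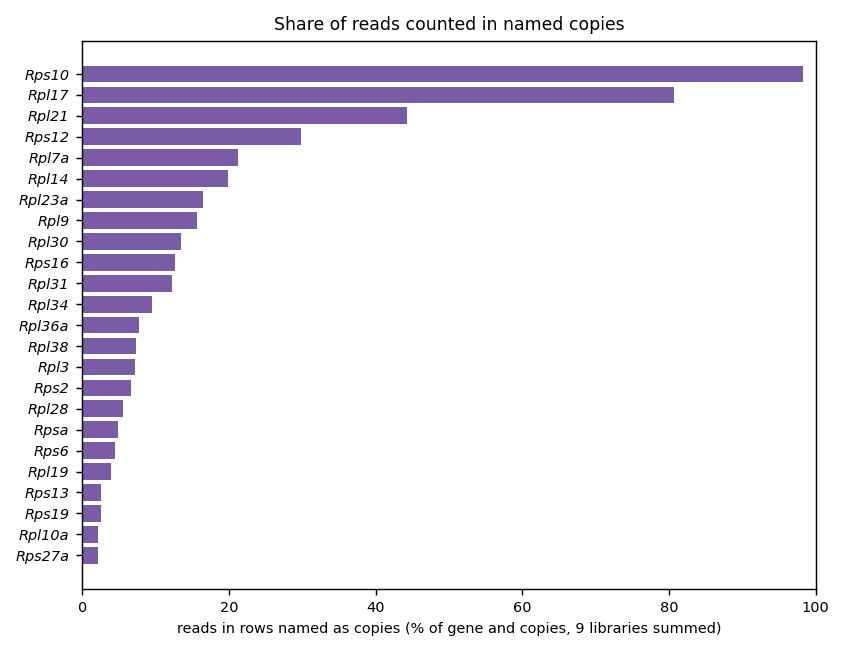
Share of reads counted in rows named as copies of a ribosomal protein gene (x axis, percent of the reads of the gene and its copies, summed over 9 libraries), one bar per gene with a share of at least 2%. Rps10 (98.3%) and Rpl17 (80.7%) have most of these reads in the copies, and Rps27a (2.1%) few.

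The comparison of old WT with young WT muscle asks how ribosomal protein mRNA in injured muscle differs with age. Both subunits were higher in old WT as a group of genes: 13 of 47 large subunit and 10 of 31 small subunit genes passed the test upwards, and none passed downwards. Among all 14233 genes tested, 3.39% passed upwards and 2.01% downwards. The median log2 fold change was 0.41 for the large subunit and 0.48 for the small one, and 0.00 for all tested genes. Values were above 0 for 43 of 47 and 29 of 31 genes. The 3 old WT libraries all lay above the 3 young WT libraries for 30 large and 22 small subunit genes, against 19% of all tested genes, and all lay below them for 1 gene, Rps2, against 18.1%. A call is a Benjamini-Hochberg adjusted p below 0.05 from limma, and the called genes had adjusted p from 0.0308 to 0.0494, close to that limit.

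The summed level of the large subunit genes was 9673, 9406 and 9906 FPKM in old WT, against 7681, 7279 and 7039 FPKM in young WT. That of the small subunit genes was 6185, 6384 and 6599 FPKM in old WT, against 5022, 4526 and 4715 FPKM in young WT. The groups did not overlap in either sum. The ratio of the large to the small sum was 1.51 ± 0.0463 in old WT and 1.54 ± 0.0591 in young WT (SD, n = 3 each), a difference smaller than the spread of the libraries. Fewer cells of a type and less RNA per cell cannot be told apart in whole muscle.

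**Figure D2:**
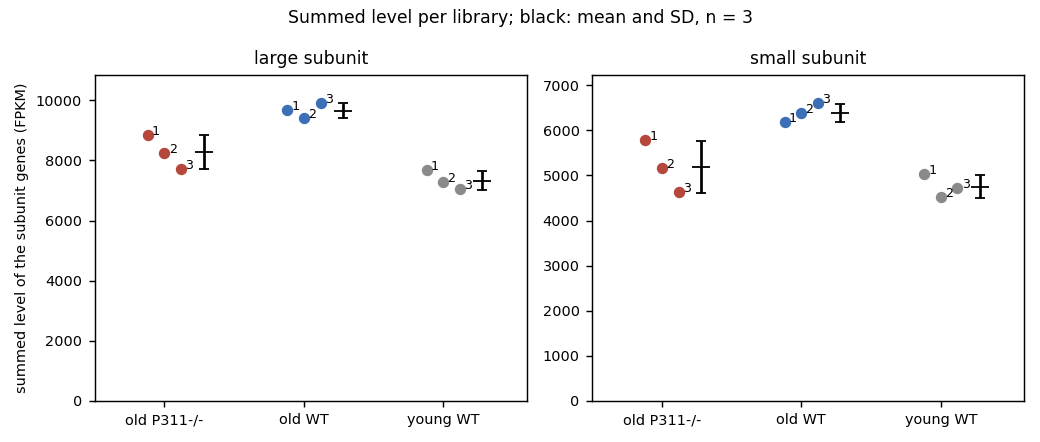
Summed FPKM of the 49 large subunit genes (left) and 31 small subunit genes (right) in each library (points, numbered by replicate), with mean and SD of each group in black (n = 3). Old WT lies above young WT in both panels, and the old P311-/- libraries spread from 7722 to 8850 FPKM (large) and from 4634 to 5784 FPKM (small).

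The largest called change was that of Rps27a, which encodes ubiquitin fused to a small subunit protein. It had 177, 142 and 188 FPKM in old WT, against 59.9, 41.6 and 36.5 FPKM in young WT. The groups did not overlap, and the gene rose by 1.90 on the log2 scale (SE 0.40, limma adjusted p = 0.0365). Rpl39, a small basic protein in the wall of the exit tunnel, had 135, 174 and 173 FPKM in old WT, against 73.2, 62.9 and 66.0 FPKM in young WT. It rose by 1.25 on the log2 scale (SE 0.24, limma adjusted p = 0.0331), and the lowest old library lay well above the highest young one. Rps27, a zinc-binding protein of the small subunit, had 249, 295 and 309 FPKM in old WT, against 162, 114 and 138 FPKM in young WT, and rose by 1.05 (SE 0.26, limma adjusted p = 0.0477). Its paralogue Rps27l, known as a target of p53, had 149, 209.6 and 179 FPKM in old WT, against 102, 85.6 and 95.3 FPKM in young WT, and rose by 0.91 (SE 0.19, limma adjusted p = 0.0343).

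Both proteins that bind 5S ribosomal RNA, and that also bind MDM2 when ribosome assembly is disturbed, were higher in every old library. Rpl5 had 124, 145 and 139 FPKM in old WT, against 91.3, 82.3 and 92.9 FPKM in young WT, and was called (log2 fold change 0.61, limma adjusted p = 0.0438). Rpl11 had 111, 96.3 and 127 FPKM in old WT, against 79.9, 78.4 and 74.2 FPKM in young WT. Its groups did not overlap either, but its log2 fold change of 0.52 was not called (limma adjusted p = 0.0647).

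Around the exit tunnel, 3 of 8 genes were called, all 8 were above 0, and the median log2 fold change was 0.56. The called genes were Rpl39, Rpl31 and Rpl35, of which the last 2 sit at the tunnel mouth. Rpl31 had 209.8, 244 and 236 FPKM in old WT, against 148, 130.2 and 142 FPKM in young WT. Rpl26, also at the mouth, had 345, 439 and 384 FPKM in old WT, against 255, 182 and 254 FPKM in young WT, and missed the limit (log2 fold change 0.77, limma adjusted p = 0.0615). Rpl4, whose loop reaches into the tunnel, had 380.3, 425 and 399.6 FPKM in old WT, against 317, 299 and 321 FPKM in young WT, a log2 fold change of 0.36 that was not called (limma adjusted p = 0.116).

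Of the genes around the peptidyl transferase centre, 0 of 3 were called, 0 of them at an unadjusted p below 0.05, and their median was 0.08. Rpl3 had 87.0, 83.2 and 87.6 FPKM in old WT, against 83.1, 91.0 and 91.1 FPKM in young WT. Rpl8 had 252, 257 and 255 FPKM in old WT, against 241, 244 and 239.7 FPKM in young WT, a difference of 0.08 on the log2 scale (SE 0.11). Rpl10, which is needed to complete the large subunit, had 220.4, 204 and 209 FPKM in old WT, against 208, 173 and 206 FPKM in young WT. The values of Rpl3 and Rpl10 overlapped between the groups. Whether this list differs from that of the tunnel was not tested.

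In the stalk and its base, 1 of 4 genes was called, with a median log2 fold change of 0.22. Rplp1 had 1431, 1392 and 1517 FPKM in old WT, against 962, 1024 and 863 FPKM in young WT, and was called (log2 fold change 0.61, limma adjusted p = 0.0422). Its dimer partner Rplp2 had 97.8, 87.6 and 94.3 FPKM in old WT, against 78.6, 98.7 and 76.7 FPKM in young WT, with overlapping groups. Rplp0 had 633, 613 and 579 FPKM in old WT, against 651, 573 and 671 FPKM in young WT, a log2 fold change of -0.05 (SE 0.13, limma adjusted p = 0.834). Rpl12, at the base, had 100.56, 100.92 and 101.01 FPKM in old WT, against 85.8, 69.4 and 92.1 FPKM in young WT, and was not called (limma adjusted p = 0.201).

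On the small subunit, 3 of 9 genes at the mRNA entry, decoding centre and head were called, with a median log2 fold change of 0.32. The called genes were Rps27a, Rps23 and Rps20. Rps23, a protein of the decoding centre, had 283, 332 and 321 FPKM in old WT, against 190.2, 192 and 172 FPKM in young WT. Rps3 at the mRNA entry had 98.9, 88.3 and 95.4 FPKM in old WT, against 92.8, 85.9 and 93.4 FPKM in young WT, with overlapping groups. Rps2, its neighbour at the entry, had 303, 315 and 279 FPKM in old WT, against 342, 319 and 342 FPKM in young WT, and was the only gene with every old library below every young one (log2 fold change -0.16, limma adjusted p = 0.417). On the mRNA exit side and platform 0 of 5 genes were called, with a median of 0.32. At an unadjusted limma p below 0.05, 3 of the 5 were higher, against 13.9% of all tested genes.

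Other small subunit genes spread over the same range. Rps24, mutated in some families with Diamond-Blackfan anaemia, had 115, 111 and 121 FPKM in old WT, against 68.5, 65.2 and 63.9 FPKM in young WT, and rose by 0.81 (SE 0.15, limma adjusted p = 0.0308). Rps19, the gene most often mutated in that anaemia, had 51.1, 48.3 and 53.4 FPKM in old WT, against 38.2, 36.9 and 34.5 FPKM in young WT, and missed the limit (limma adjusted p = 0.0587). Rps6, the target of S6 kinase, had 293, 277 and 287 FPKM in old WT, against 234, 188 and 254 FPKM in young WT (limma adjusted p = 0.147). The groups did not overlap for any of these genes. X-linked Rps4x also had no overlap, with 342, 349 and 345 FPKM in old WT against 275, 231 and 258 FPKM in young WT (limma adjusted p = 0.0608). Rps29 had 213, 144 and 201 FPKM in old WT, against 140.0, 143 and 93.6 FPKM in young WT, and was not called (limma adjusted p = 0.121).

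Called large subunit genes outside these roles included Rpl34, Rpl36a and Rpl22. Rpl34 had 145, 150.2 and 146 FPKM in old WT, against 83.0, 79.3 and 81.8 FPKM in young WT, and rose by 0.85 (SE 0.20, limma adjusted p = 0.0429). Its named copies held 9.56% of the reads of the gene and its copies. With these added Rpl34 was not called (log2 fold change 0.78, limma adjusted p = 0.0656). Adding the copies of every member moved large subunit calls from 13 to 14, where 3.37% of all tested genes were called higher. Rpl21 (log2 fold change 0.71, limma adjusted p = 0.0329) and Rpl30 (0.93, limma adjusted p = 0.0374) were then called. Rpl36a had 94.0, 95.7 and 102 FPKM in old WT, against 59.3, 53.4 and 50.8 FPKM in young WT, and rose by 0.84 (SE 0.16, limma adjusted p = 0.0308). Rpl22, a protein that general translation can do without in mice, had 69.2, 87.7 and 79.6 FPKM in old WT, against 49.7, 46.0 and 45.6 FPKM in young WT, and rose by 0.74 (SE 0.14, limma adjusted p = 0.0308). Its paralogue Rpl22l1, which lies outside the name rule, had 22.9, 30.5 and 29.5 FPKM in old WT, against 10.6, 12.7 and 11.1 FPKM in young WT (log2 fold change 1.25, limma adjusted p = 0.0308). Rps15a, which binds the central domain of the small subunit RNA, had 51.5, 74.0 and 60.8 FPKM in old WT, against 33.5, 26.1 and 32.8 FPKM in young WT, and rose by 1.0 (SE 0.22, limma adjusted p = 0.0400). Other called genes, among them Rpl7, Rpl23, Rpl27, Rpl32, Rpl37, Rps18 and Rps25, rose by 0.53 to 0.72.

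At the other end, Rpl18 had 50.1, 52.2 and 57.1 FPKM in old WT, against 57.7, 55.7 and 57.1 FPKM in young WT (log2 fold change -0.10, limma adjusted p = 0.586). Rpl13a, with few reads, had 4.64, 3.03 and 4.91 FPKM in old WT, against 4.34, 5.55 and 6.01 FPKM in young WT (log2 fold change -0.35, limma adjusted p = 0.425). Rps10 had 0.658, 0.418 and 0.645 FPKM in old WT, against 0.571, 0.647 and 0.942 FPKM in young WT (log2 fold change -0.28, limma adjusted p = 0.685). Rpl39l had 1.11, 1.16 and 0.897 FPKM in old WT and 0, 0.432 and 0.0609 FPKM in young WT, and was not called (limma adjusted p = 0.136).

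**Figure D3:**
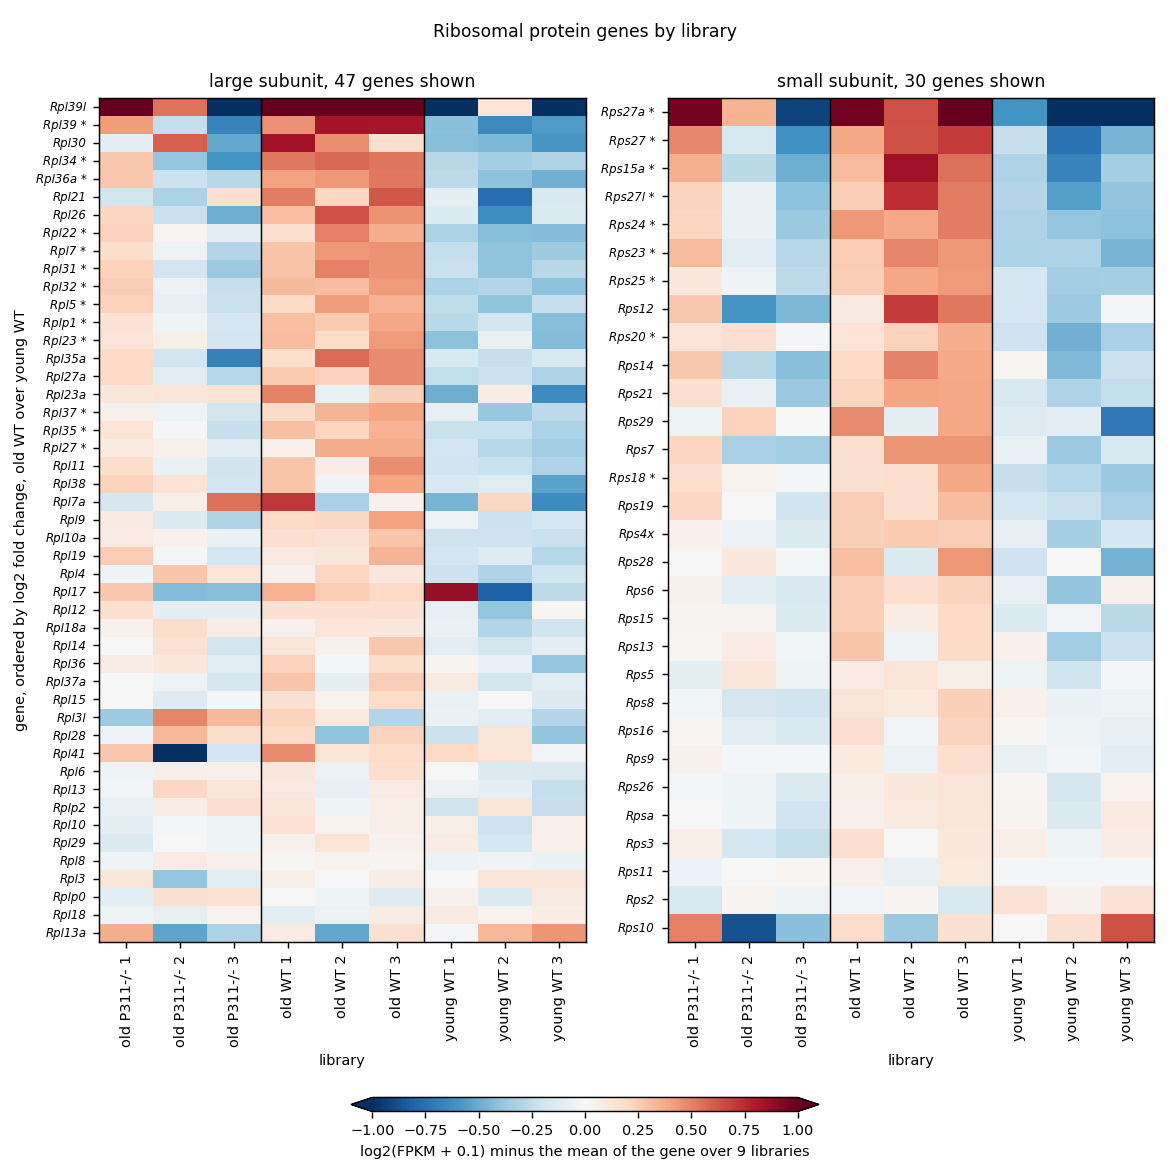
Level of 77 of the 78 tested genes in each library as log2(FPKM + 0.1) minus the mean of that gene over the 9 libraries (red above, blue below), with genes ordered by log2 fold change of old WT over young WT and an asterisk for the 22 called genes shown. The old WT columns are red for most genes, the young WT columns blue, and among the old P311-/- columns replicate 1 is most often red and replicate 3 most often blue; colours stop at 1 either side of the mean.

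The calls depended on the set of libraries and on the scaling. With old P311-/- replicate 1 left out of the shared fit, 20 large and 16 small subunit genes were called higher in old WT and 0 lower, against 7.26% and 5.07% of all tested genes. With any 1 young WT library, or old WT replicate 2 or 3, left out, 0 genes of either subunit were called. Few genes of any kind passed in those fits, where 0 to 12 of all 14233 tested genes were called higher. With total-count scaling 0 members were called as well, against 0.674% of all tested genes called higher. Without old P311-/- replicate 3 the calls were 7 large and 9 small subunit genes, against 2.08% of all tested genes, and without old WT replicate 1 they were 5 and 6, against 2.47%. All 23 called genes kept a log2 fold change above 0 under each of the 20 alternative settings, and the medians stayed between 0.28 and 0.46 (large) and 0.29 and 0.51 (small).

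Gene composition moved with the same contrast. GC content was that of the longest transcript of each gene in GENCODE M21. Across the 78 tested genes the log2 fold change of old WT over young WT had a Spearman correlation of -0.43 with it. The correlation with gene length was -0.05. Over all tested genes these were -0.36 and -0.25. Genes share their libraries, so these values describe and are not tested. With length and GC trends removed from each library, the medians were 0.35 and 0.34. Of the members 0 were then called, against 0.0281% of all tested genes called higher. Mitochondrial genes took 13.2% to 17.6% of reads in old WT and 8.79% to 10.7% in young WT, without overlap.

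Markers of cell types differed as well, in a comparison where 3.39% of all tested genes were called higher and 2.01% lower. The summed level of 8 fibroblast and fibro-adipogenic markers was 1142 to 1451 FPKM in old WT and 1639 to 1758 FPKM in young WT, without overlap, and 1 of 8 was called lower. The sum of 10 muscle fibre genes was 57402 to 70562 FPKM in old WT and 50279 to 54925 FPKM in young WT, without overlap, and 1 of 10 was called lower. The sum of 10 macrophage markers was 1241 to 1817 FPKM in old WT and 1528 to 2362 FPKM in young WT, with overlap. No gene of the macrophage, endothelial, lymphocyte, erythroid, adipocyte, Schwann cell or neutrophil lists was called, and Ly6g, which marks neutrophils, was at 0 in all libraries. The part of cell make-up in the ribosomal protein values was not tested.

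Other genes of the translation machinery give the setting. Among all tested genes, 3.39% were called higher and 2.01% lower in old WT than in young WT. Among 10 tested non-coding RNAs with TOP tracts or snoRNA genes in their introns, 4 were called higher in old WT, 0 lower, and all 10 were above 0, with a median log2 fold change of 0.70. Gas5, a spliced non-coding RNA whose introns hold snoRNAs, had 14.8, 14.7 and 15.4 FPKM in old WT, against 8.04, 7.51 and 8.45 FPKM in young WT (log2 fold change 0.90, limma adjusted p = 0.0308). The other 3 were Snhg1, Snhg5 and Snhg8, with log2 fold changes of 0.99, 0.77 and 1.17. Of 18 translation factors and related TOP mRNAs, 2 were called higher, Eif3e (0.75) and Npm1 (0.46), and the median was 0.23. Of 50 genes for RNA polymerase I and ribosome assembly, 2 were called higher, Dkc1 (0.63) and again Npm1, a share near the 3.39% of all tested genes. The median of the 50 was 0.10. Of 24 genes of the mTORC1, LARP1 and MYC axis 0 were called, 3 were higher and 4 lower at an unadjusted limma p below 0.05, shares near the 13.9% and 12.4% of all tested genes, and the median was -0.14.

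The comparison of old P311-/- with old WT asks what the loss of P311 does in old injured muscle. Most ribosomal protein genes stood lower in old P311-/-, but none was called. Values were below 0 for 38 of 47 large subunit and 31 of 31 small subunit genes, and the medians of the log2 fold change were -0.21 and -0.25, against 0.00 for all tested genes. Called genes made up 0.0141% (higher) and 0.0562% (lower) of all tested genes by limma in this comparison. At an unadjusted limma p below 0.05, 15 large and 13 small subunit genes were lower and 0 higher, against 8.54% and 7.59% of all tested genes. All old P311-/- libraries lay below all old WT libraries for 18 large and 11 small subunit genes and above them for 0, against 9.39% and 8.64% of all tested genes.

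The 3 old P311-/- libraries did not give the same picture. The summed level of the large subunit genes was 8850, 8246 and 7722 FPKM in old P311-/- replicates 1, 2 and 3, against 9673, 9406 and 9906 FPKM in old WT. That of the small subunit genes was 5784, 5159 and 4634 FPKM in old P311-/-, against 6185, 6384 and 6599 FPKM in old WT. The sums did not overlap. As a share of all reads the groups did overlap, with 2.64%, 1.91% and 1.91% in old P311-/- against 2.46%, 2.42% and 2.80% in old WT. Replicate 1 lay below all old WT libraries for 25 of 47 and 14 of 31 genes, replicate 2 for 29 and 23, and replicate 3 for 34 and 25. The share over all tested genes was not determined for single libraries. These counts therefore only set the replicates beside each other.

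With replicate 1 left out, 13 large and 10 small subunit genes were called lower in old P311-/- and 0 higher, against 6.2% lower and 6.97% higher among all tested genes. The medians were then -0.29 and -0.34. That fit rests on 2 old P311-/- libraries, and no member was called with any other single library left out. With all 9 libraries weighted by their quality in voom, 20 large and 15 small subunit genes were called lower, against 14.9% of all tested genes. That fit leans on old P311-/- replicate 3, which weighed 2.88, against 0.213 and 0.683 for replicates 1 and 2. Replicate 3 was the lowest of its group for 26 of 47 large and 25 of 31 small subunit genes. The share of all tested genes for which it was the lowest was not determined.

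Rpl34 had the smallest p of the genes that stood lower. It had 121, 76.9 and 66.4 FPKM in old P311-/-, against 145, 150.2 and 146 FPKM in old WT, a log2 fold change of -0.79 (SE 0.20, limma adjusted p = 0.242). Without replicate 1 the value was -1.04 (limma adjusted p = 0.00289). Rpl39 had 131, 83.2 and 61.5 FPKM in old P311-/-, against 135, 174 and 173 FPKM in old WT, a log2 fold change of -0.87 (SE 0.24, limma adjusted p = 0.253). Rps24 had 98.7, 81.4 and 65.9 FPKM in old P311-/-, against 115, 111 and 121 FPKM in old WT (log2 fold change -0.51). Rpl36a had 85.6, 61.1 and 58.6 FPKM in old P311-/-, against 94.0, 95.7 and 102 FPKM in old WT (log2 fold change -0.53). Rpl31 had 202, 151 and 134 FPKM in old P311-/-, against 209.8, 244 and 236 FPKM in old WT (log2 fold change -0.52). In all 5 genes the groups did not overlap, replicate 1 was the nearest to old WT, and the adjusted p was 0.242 to 0.254 by limma. Without replicate 1 all 5 were called lower: the log2 fold changes of Rpl39, Rps24, Rpl36a and Rpl31 were then -1.16, -0.66, -0.70 and -0.69, with limma adjusted p of 0.00722, 0.0132, 0.00862 and 0.012. Leaving out the library nearest to old WT enlarges these differences by construction.

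Rps27a varied widely within old P311-/-, with 176, 116 and 47.7 FPKM, against 177, 142 and 188 FPKM in old WT. Replicate 1 lay inside the old WT range and replicate 3 inside the young WT range of 36.5 to 59.9 FPKM. It was not called against old WT without replicate 1 either (log2 fold change -1.17, limma adjusted p = 0.0639). Rpl41, which encodes the shortest ribosomal protein, had 445, 162 and 323 FPKM in old P311-/-, against 513, 406 and 419.9 FPKM in old WT, with overlapping groups and no call (limma adjusted p = 0.337). Without replicate 1 it was called lower (log2 fold change -0.96, limma adjusted p = 0.0427).

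Among the 9 large subunit genes above 0, the 5 with the smallest p were Rplp0, Rpl28, Rpl3l, Rpl13 and Rpl8, and their log2 fold changes were 0.01 to 0.15, with adjusted p from 0.685 to 0.977 by limma. Rplp0 had 583, 702 and 699.8 FPKM in old P311-/-, against 633, 613 and 579 FPKM in old WT. Rpl28 had 93.2, 121 and 108 FPKM in old P311-/-, against 109.6, 72.3 and 112 FPKM in old WT. Rpl13 had 161, 189 and 178 FPKM in old P311-/-, against 174, 155 and 174 FPKM in old WT. The groups overlapped for all 5, and without replicate 1 none of them was called (limma adjusted p from 0.137 to 0.802).

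**Figure D4:**
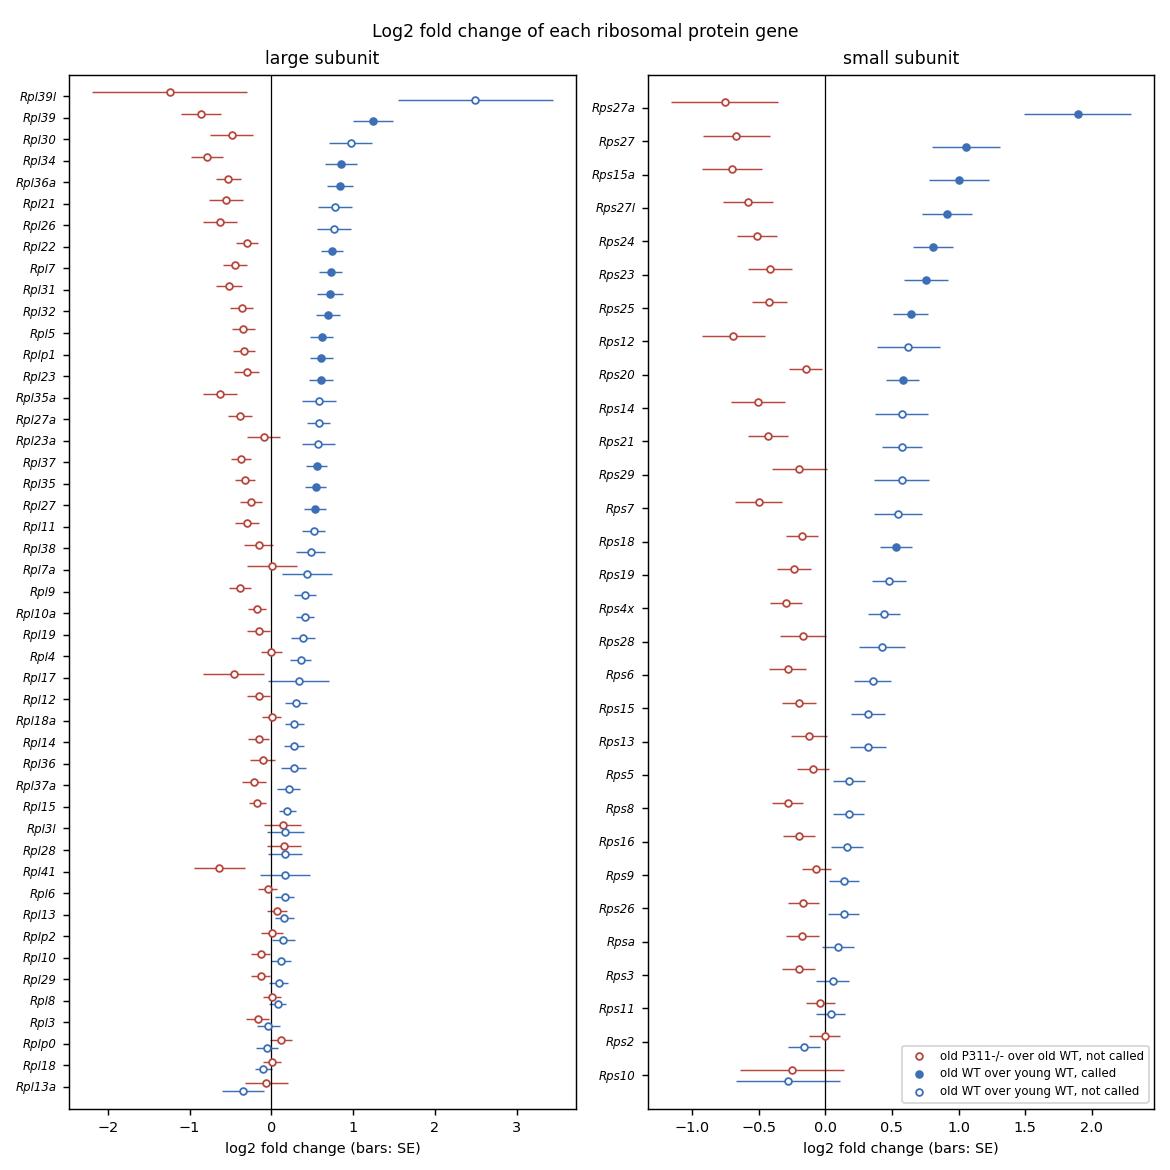
Log2 fold change (points) and its SE (bars) for 77 of the 78 tested genes of the large (left) and small (right) subunit, for old P311-/- over old WT (red) and old WT over young WT (blue), with filled points for called genes. The 22 filled points are all blue and to the right of 0; the old WT libraries enter both comparisons, so the colours are not independent of each other.

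Lists beside the ribosomal proteins showed the following in this comparison. The TOP and snoRNA host RNAs had a median log2 fold change of -0.47 with 0 of 10 called and 5 lower at an unadjusted limma p below 0.05. Without replicate 1 the median was -0.61 with 2 called lower. The genes of the mTORC1, LARP1 and MYC axis had a median of 0.33 with 0 of 24 called, and 10 higher and 1 lower at an unadjusted limma p below 0.05. Without replicate 1 the median was 0.51 with 11 called higher and 0 lower. Among all tested genes, 7.59% were higher and 8.54% lower at an unadjusted limma p below 0.05 in this comparison. Without replicate 1, 6.97% of all tested genes were called higher and 6.2% lower. Ddit4, an inhibitor of mTORC1 induced by stress, had 7.03, 14.7 and 15.4 FPKM in old P311-/-, against 4.36, 3.75 and 4.03 FPKM in old WT (log2 fold change 1.51, SE 0.28, limma adjusted p = 0.175). Eif4ebp1, which holds back cap-dependent translation, had 15.8, 28.2 and 26.3 FPKM in old P311-/-, against 14.2, 10.9 and 14.2 FPKM in old WT (log2 fold change 0.80, limma adjusted p = 0.243). Larp1, the binder of TOP tracts, had 15.6, 21 and 22.7 FPKM in old P311-/-, against 14.5, 13.4 and 12.5 FPKM in old WT (log2 fold change 0.53, limma adjusted p = 0.253). In these 3 genes the groups did not overlap, and replicate 1 was again the nearest to old WT. Without it, which enlarges these differences by construction, all 3 were called higher, with log2 fold changes of 1.87, 1.06 and 0.69 (limma adjusted p of 0.00265, 0.00607 and 0.0145).

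The sum of 8 myogenic cell markers was 1094 to 1566 FPKM in old P311-/- and 972 to 987 FPKM in old WT, without overlap and with 0 of 8 called by limma (1 higher and 1 lower at an unadjusted p below 0.05). The sums of the fibre, macrophage and fibroblast markers overlapped. Mitochondrial genes took 9.47% to 14.1% of reads in old P311-/-, against 13.2% to 17.6% in old WT. The Spearman correlation of the log2 fold change with GC content was 0.35 over the 78 genes and 0.40 over all tested genes, again as a description. The sum of the Schwann cell markers was 5.68 to 11.2 FPKM in old P311-/- and 3.20 to 5.33 FPKM in old WT, without overlap and with 0 of 4 called. Without replicate 1, 6.97% of all tested genes were called higher and 6.2% lower. Of the markers, 2 of 8 myogenic, 3 of 10 fibre and 1 of 4 Schwann cell genes were then called higher. Called lower were 3 of 10 macrophage, 2 of 8 fibroblast and 1 of 10 fibre markers, and 1 gene each of the endothelial, lymphocyte and adipocyte lists. The part of these in the ribosomal protein values was not tested.

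The pair Rpl3l and Rpl3 gives a muscle-specific view of the large subunit, since RPL3L takes the place of RPL3 in ribosomes of mature muscle fibres. Rpl3l had 142, 256 and 229 FPKM in old P311-/-, 213, 195 and 149 FPKM in old WT and 174, 169 and 149 FPKM in young WT. Rpl3 had 90.5, 63.7 and 77.2 FPKM in old P311-/-, 87.0, 83.2 and 87.6 FPKM in old WT and 83.1, 91.0 and 91.1 FPKM in young WT. The ratio of the FPKM values, Rpl3l over Rpl3, was above 1 in every library. Its level depends on the length divisors, 1643 exonic bases for Rpl3l and 3175 for Rpl3 in GENCODE M21, so it serves only to compare libraries. Over the 9 libraries together Rpl3l had 58170 reads and Rpl3 had 50843. Of the reads of Rpl3 and its named copies, 7.14% were in the copies. The ratio was 1.57, 4.02 and 2.96 in old P311-/-, 2.45, 2.35 and 1.70 in old WT and 2.1, 1.86 and 1.63 in young WT. Old P311-/- replicate 1 had the lowest ratio of the 9 libraries and replicates 2 and 3 the highest. Neither gene was called in any of the 3 comparisons. Without replicate 1, Rpl3l was higher in old P311-/- than in young WT (log2 fold change 0.57, limma adjusted p = 0.0424), and against old WT it was not called (0.40, limma adjusted p = 0.137).

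A second such pair, the elongation factor Eef1a2 of mature muscle and the general Eef1a1, stood in the same order over the old P311-/- libraries. The ratio Eef1a2 over Eef1a1 was 0.539, 1.34 and 1.20 in old P311-/-, 0.641, 0.644 and 0.448 in old WT and 0.625, 0.603 and 0.525 in young WT. Replicates 2 and 3 lay above every other library in both ratios, and replicate 1 did not. Without replicate 1, Eef1a2 was called higher in old P311-/- than in old WT (log2 fold change 0.73, limma adjusted p = 0.0119).

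**Figure D5:**
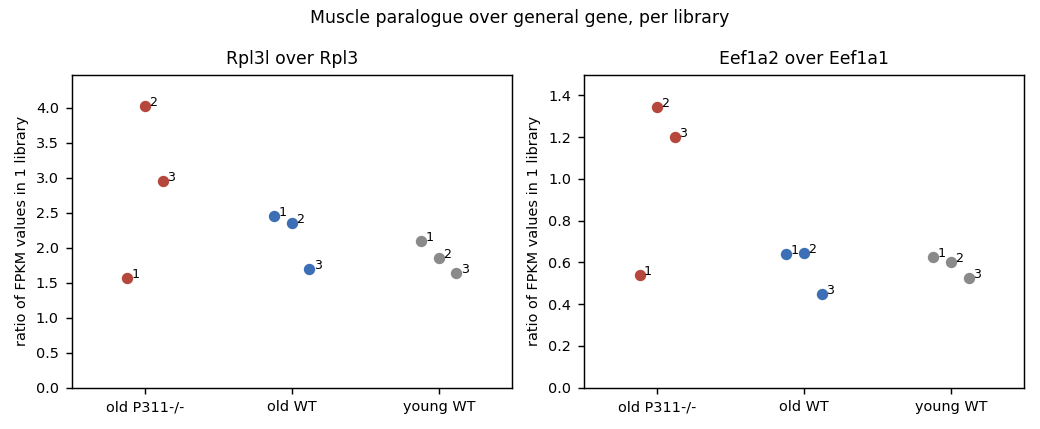
Ratio of FPKM values within each library (points, numbered by replicate) for Rpl3l over Rpl3 (left) and Eef1a2 over Eef1a1 (right). Old P311-/- replicates 2 and 3 have the highest ratios in both panels (4.02 and 2.96 on the left, 1.34 and 1.20 on the right), and replicate 1 lies at 1.57 and 0.539.

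Other paralogues lie mostly outside the name rule. Of 7 tested paralogues 3 were called higher in old WT than in young WT, namely Rpl22l1, Rps27l and Rps27rt, against 3.39% of all tested genes. Rps27rt had 173, 143 and 93.4 FPKM in old P311-/-, 214, 349.7 and 269 FPKM in old WT and 157, 120.3 and 130.4 FPKM in young WT. Its log2 fold change was 1.01 for old WT over young WT (limma adjusted p = 0.0490) and -1.04 for old P311-/- over old WT (limma adjusted p = 0.242), or -1.24 without replicate 1 (limma adjusted p = 0.0163). Rps4l had 5.73, 5.04 and 4.28 FPKM in old P311-/-, 8.41, 7.55 and 11.9 FPKM in old WT and 15.9, 10.5 and 9.55 FPKM in young WT, and was not called in any comparison with all libraries. Without replicate 1 it was called lower in old P311-/- than in old WT (log2 fold change -0.95, limma adjusted p = 0.0387) and than in young WT (-1.31, limma adjusted p = 0.00992). Reads of near-identical paralogues can be exchanged, so the values of Rps27 and Rps27rt are uncertain.

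In old P311-/- against young WT, no ribosomal protein gene was called, and the direction of the small subunit median depended on the scaling. Values were above 0 for 38 of 47 large and 22 of 31 small subunit genes, with medians of 0.21 and 0.14 against 0.01 for all tested genes. The medians were 0.14 and 0.09 without replicate 1, and 0.069 and -0.0029 with total-count scaling. Called genes made up 0.155% (higher) and 0.246% (lower) of all tested genes by limma in this comparison. At an unadjusted limma p below 0.05, 5 large and 4 small subunit genes were higher and 0 lower, against 10.9% and 10.6% of all tested genes, so the higher share was near that of all genes. The groups did not overlap upwards for 10 large and 6 small subunit genes and downwards for 1 small subunit gene, Rps2, against 11.6% and 12% of all tested genes. Without replicate 1, 3 genes were called higher, Rpl4, Rpl3l and Rps20, and 0 lower, against 10.3% higher and 9.22% lower of all tested genes. That share of the members was below the share of all genes.

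Rps20 had the smallest p, with 88.5, 90.6 and 80.4 FPKM in old P311-/-, against 69.8, 57.9 and 64.5 FPKM in young WT (log2 fold change 0.43, SE 0.12, limma adjusted p = 0.119). Rpl22 had 72.4, 62.4 and 57.1 FPKM in old P311-/-, against 49.7, 46.0 and 45.6 FPKM in young WT (log2 fold change 0.43, limma adjusted p = 0.135). Rps18 had 131, 119.8 and 115 FPKM in old P311-/-, against 99.5, 95.7 and 90.2 FPKM in young WT (log2 fold change 0.36). Rpl4 had 357, 447 and 401 FPKM in old P311-/-, against 317, 299 and 321 FPKM in young WT (log2 fold change 0.36). Without replicate 1, Rps20 and Rpl4 were called (limma adjusted p of 0.049 and 0.0293), and Rpl22 and Rps18 were not (0.0878 and 0.0944). These 4 genes had no overlap between the groups, while Rps27a did (log2 fold change 1.14, SE 0.40, limma adjusted p = 0.164). Lower in old P311-/- stood Rpl13a, Rpl41, Rpl3, Rps2 and Rps10, with log2 fold changes of -0.17 to -0.53 and adjusted p from 0.378 to 0.449 by limma; without replicate 1 none of them was called either (limma adjusted p from 0.0615 to 0.486). The macrophage markers had 0 of 10 called and 9 lower at an unadjusted limma p below 0.05, against 10.6% of all tested genes, and their sums overlapped. The fibroblast markers had 0 of 8 called and 5 lower, with sums of 776 to 1372 FPKM in old P311-/- and 1639 to 1758 FPKM in young WT. The fibre markers had 0 of 10 called and 9 above 0, with sums of 56708 to 72084 FPKM in old P311-/- and 50279 to 54925 FPKM in young WT, again without overlap. Without replicate 1, 7 macrophage and 4 fibroblast markers were called lower and 4 fibre markers higher, against 9.22% and 10.3% of all tested genes. The part of these markers in the values was not tested. For 31 of 47 large and 23 of 31 small subunit genes the old P311-/- mean lay between the means of old WT and young WT. The share over all tested genes was not determined, so this order of means cannot be called particular to the members.

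Ribosomal components that the name rule leaves out were few. Of 7 tested, 2 were called higher in old WT than in young WT, against 3.39% of all tested genes. They are the paralogues Rpl22l1 and Rps27rt already given. Rack1, a scaffold on the small subunit head, had 103, 97.3 and 102 FPKM in old P311-/-, 106, 112 and 112 FPKM in old WT and 91.3, 85.8 and 90.5 FPKM in young WT. Rps3a1 had 544, 521 and 458 FPKM in old P311-/-, 688, 629 and 638 FPKM in old WT and 539, 484 and 545 FPKM in young WT. In both genes every old WT library lay above all others, and neither was called in any comparison (limma adjusted p from 0.105 to 0.870, and from 0.0539 to 0.619 without replicate 1).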

How the data were processed

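The deposited table holds FPKM values per gene for 9 libraries of poly(A) RNA and the length of each gene, which the authors used as the divisor. Per the submitters' processing notes, HISAT2 2.2.1, featureCounts 2.1.1 and DESeq2 1.42.0 were used; their options and the strand setting are not given in these sources. The notes name mm39, but 53499 of 54409 gene IDs shared with GENCODE M21 (98.3%), including 78 of the 80 members, have their GRCm38 positions. Value times length gave whole reads for 100% of 195117 positive values (tolerance 0.001), so the scale is that of size factors.

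Genes with at least 0.5 FPKM and at least 10 recovered reads in 3 libraries were tested (14233) with limma 3.58.1 in R 4.3.3 on log2(FPKM + 0.1), with trend and robust variance, one mean per group over all 9 libraries, Benjamini-Hochberg adjustment over all genes tested and a threshold of 0.05. Fold changes are on this scale and understate those of low genes. The fit was tested on simulated data. Alternative fits changed the scaling, pseudocount, filter, libraries, block, weights, and length and GC trends; adding the reads of named copies was chosen after the data were seen. Reads on overlapping, antisense or copied genes could not be assigned anew. The old WT libraries are shared between 2 comparisons.

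Members and gene lists were chosen with earlier results of these data known. Named genes were, per comparison and direction, up to 10 called members with the largest change, otherwise the 5 with the smallest p, plus 18 fixed members, the members of the role lists and up to 4 genes of each other list; genes named for few reads, for copies or as further calls were chosen after their values were seen. 1 member is counted but not reported here by name. Promoter sequences were matched by symbol to a RefSeq table on GRCm38.p6.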

Additional observations from a re-analysis of the deposited data

How the results depend on the processing

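Higher levels in old WT than in young WT kept their direction in the medians under all 20 alternatives, but the number of calls did not hold. Large and small subunit calls were 0 and 0 with total-count scaling, and with total counts without mitochondrial and ribosomal protein genes. They were also 0 and 0 without a filter, with the replicate block, and with length and GC trends removed. Of all genes in these fits, 0.674%, 0.794%, 0.00675%, 0% and 0.0281% were called higher, in that order. The subunit calls were 4 and 5 with the length trend removed, where 1.88% of all tested genes were called higher. With voom quality weights they were 25 and 16, where 11% were called higher. In a fit of the 6 libraries compared, 22 large subunit genes and 6.84% of all tested genes were called higher. The medians were 0.28 and 0.34 with total counts, 0.29 and 0.29 with the length trend removed, and 0.35 and 0.34 with length and GC removed. Total-count scaling multiplies all genes of a library by the same factor. Apart from the pseudocount, its shift of the medians was thus shared by all genes. The cause of the changes in calls and in the other medians was not tested. No pairing by replicate number was seen: same-number correlations ran from -0.10 to 0.15, and those of other pairs from -0.16 to 0.21. With 3 libraries per group this check cannot exclude a pairing or a shared batch.

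With 1 library left out, large subunit calls in old WT against young WT ranged from 0 to 20 and medians from 0.37 to 0.46; small subunit calls ranged from 0 to 16 and medians from 0.44 to 0.51. For old P311-/- against old WT the ranges were 0 to 13 and -0.29 to -0.16 (large), and 0 to 10 and -0.34 to -0.17 (small). For old P311-/- against young WT they were 0 to 2 and 0.14 to 0.25 (large), and 0 to 1 and 0.09 to 0.21 (small). In both comparisons with old P311-/-, members were called only with old P311-/- replicate 1 left out.

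With voom quality weights, largest (2.88) for old P311-/- replicate 3, 20 large and 15 small subunit genes were called lower in old P311-/- than in old WT. Among all tested genes 14.9% were. Against young WT 4 large and 2 small subunit genes were called higher and 1 large one lower, 5 and 2 in all, where 15.6% of all tested genes were called higher and 15.5% lower, with a large subunit median of 0.094. Against young WT the large subunit median was 0.069 with total counts and 0.092 without mitochondrial and ribosomal protein genes; the small subunit median was -0.0029 and 0.021.

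Values that turned sign were small and none was called. In old WT against young WT, Rpl18 was 0.027 and Rpl3 0.0097 with length and GC removed; Rpl10 was -0.020 with total counts, -0.00086 with length removed and -0.13 with length and GC removed; Rps3 was -0.079 with total counts. In old P311-/- against old WT, Rpl13 was -0.0051 and Rpl8 -0.068 without mitochondrial and ribosomal protein genes, and Rpl8 was -0.0031 with total counts and -0.039 with length and GC removed. With 1 library left out, Rpl28 ranged from -0.055 to 0.26, Rpl3l from -0.029 to 0.40 and Rpl8 from -0.016 to 0.043. Recomputing the 45 named gene values under the other settings left 408 on their side of the threshold, took 61 below it, brought 16 past it and turned the sign of 10. Leaving out 1 library gave 328, 62, 10 and 5 in the same order.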
